A study of Danio rerio with 28 samples.

Results

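A set of 7 immediate early genes was followed across every library of a zebrafish brain macrophage study. The set was chosen with earlier results of these data known, so its counts set beside the shares of all genes are descriptive only. Its genes were taken by Ensembl ID or gene name: JUNB ENSDARG00000104773, JUNB ENSDARG00000074378, ZFP36L1 ENSDARG00000021443, DUSP2, FOS, egr1 and EGR3. They were 7 of the 32520 gene IDs counted, and all 7 passed the filter on low counts, among 8658 genes tested in untreated fish and 12421 tested in the injection experiment.

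Immediate early genes are transcribed within minutes of a stimulus, without new protein synthesis, by factors such as SRF and its ternary complex partners that kinases of the ERK pathway activate. FOS and JUNB are subunits of AP-1, a dimeric transcription factor, and egr1 and EGR3 are zinc-finger transcription factors. ZFP36L1 and DUSP2 sit on the feedback side: the first binds AU-rich elements and speeds the decay of short-lived mRNAs, the second is a nuclear phosphatase that inactivates MAP kinases. In microglia, the resident macrophages of the brain, these genes are known to respond to stimuli that include tissue handling.

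The libraries came from 14 adult fish carrying TgBAC(ccl34b.1:eGFP);Tg(mpeg1:DsRedx), a green reporter under the chemokine gene ccl34b.1 and a red reporter under the macrophage gene mpeg1. The injection experiment held 3 fish injected with E. coli, 4 injected with PBS (buffer alone) and 2 controls with no treatment listed, all aged 6 months. A separate experiment held 5 untreated fish aged 4 months. Fish were counted by replicate number within a treatment. On that count each gave 1 library of 100 ccl34b.1+mpeg1+ cells and 1 of 100 ccl34b.1-mpeg1+ cells, called ccl34b.1+ and ccl34b.1- below. The labels do not say that a number marks a fish, so the gates were tested as unpaired. The gates rest on reporter fluorescence, brains were dissociated with trypsin, and of 3 technical replicates sorted from a gate 1 was sequenced. The sources used here do not give the dose of bacteria, the site of injection or the time to collection.

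Library totals ran from 2.24 to 9.69 M counts in the injection experiment and from 14.2 to 30.4 M in untreated fish, with 8204 to 12462 genes detected. Levels are in CPM, counts scaled to each library's total times its TMM factor, a scaling factor that edgeR estimates per library. These factors ran from 0.733 to 1.34 in the injection experiment and from 0.860 to 1.14 in untreated fish. The experiments were scaled separately, so their levels are set side by side and not compared. The label microglia was described by the summed level of 14 marker genes. The set includes ccl34b.1, whose reporter defines the gates, so its part of the gate difference follows from the sort. The sum without ccl34b.1 was not computed. The sum of all 14 markers was 48700 to 60900 CPM in the ccl34b.1+ gate of untreated fish, against 1720 to 4990 CPM in their ccl34b.1- gate. In controls it was 64500 to 85200 against 1380 to 3250 CPM. After PBS it was 50500 to 75000 against 1650 to 4820 CPM, and after E. coli 5420 to 9440 against 807 to 2260 CPM. The ccl34b.1- libraries thus held little of the marker set in every group, and the ccl34b.1+ libraries after E. coli held less than any other ccl34b.1+ library. Of 9 dendritic cell marker IDs, CCR7 was at 0 in every group, and their sum was 294 to 896 CPM across the ccl34b.1+ groups and 1960 to 11500 CPM across the ccl34b.1- groups. The 3 erythrocyte marker IDs were at 0 in every group. The sum of 5 neutrophil marker IDs was 5.07 to 2360 CPM (median 1790) in E. coli ccl34b.1- libraries and 1.12 to 304 CPM across the other groups, with lyz at 0 in every group. Each library is a pool of cells, so fewer cells of a type and less RNA per cell cannot be told apart.

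**Figure D1:**
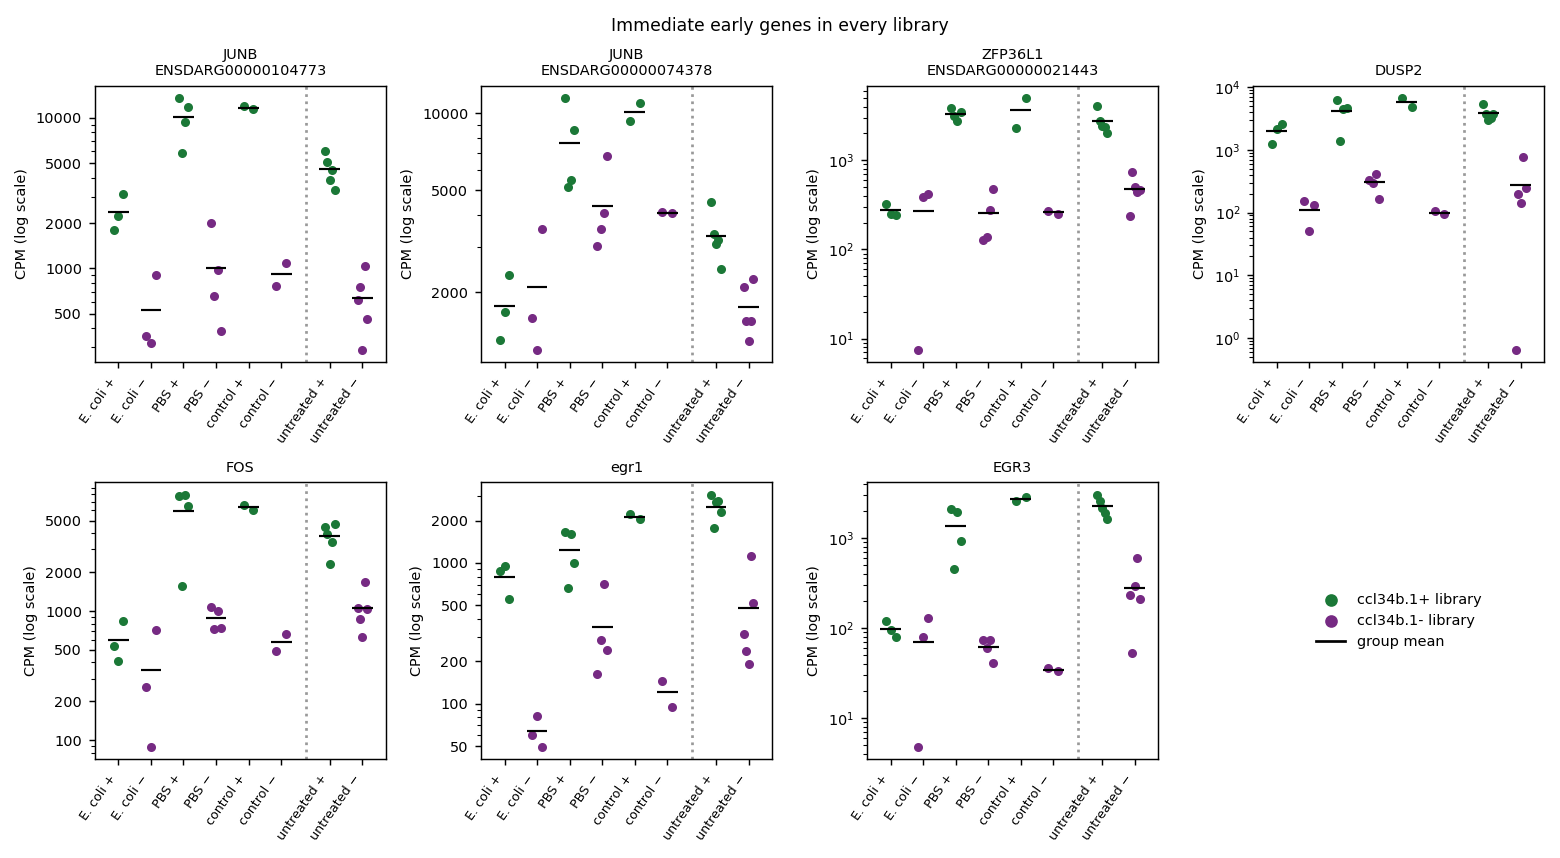
Level of each of the 7 genes in every library (y axis, CPM on a log scale) by treatment and gate (x axis), with group means as black bars and the untreated experiment right of the dotted line. All 7 genes lay higher in every ccl34b.1+ than in every ccl34b.1- library of untreated fish, against 5.16% of the genes tested. The same held in controls, against 22.5% with 2 libraries per gate. After PBS the gates overlapped for JUNB ENSDARG00000074378 and egr1. DUSP2, egr1 and JUNB ENSDARG00000104773 lay higher without overlap after E. coli, against 8.12%.

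The first comparison asked how ccl34b.1+ and ccl34b.1- cells of untreated fish differ. The AP-1 subunits, the EGR factors and ZFP36L1 were all higher in ccl34b.1+ cells, by 1.90-fold to 8.05-fold. Of the 7 genes, 6 passed the threshold (adjusted p under 0.05), all higher, where 3.71% of the 8658 genes tested passed and 2.1% did so as higher in ccl34b.1+ cells. In all 7 every ccl34b.1+ library lay above every ccl34b.1- library, which held for 5.16% of the genes tested. The median log2 fold change was 2.52 over the 7 genes and -0.01 over all genes tested.

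JUNB ENSDARG00000104773 stood at 6051, 5048, 3863, 4487 and 3325 CPM in ccl34b.1+ libraries 1 to 5, against 614, 755, 289, 1042 and 463 CPM in ccl34b.1- libraries. The lowest ccl34b.1+ library thus held more than the highest ccl34b.1- library, and ccl34b.1+ library 1 stood at the top. The log2 fold change was 2.85 ± 0.31 (SE; edgeR quasi-likelihood test, Benjamini-Hochberg adjusted p = 8.46e-05). The paralog JUNB ENSDARG00000074378 stood at 4525, 3366, 3093, 3196 and 2457 CPM in ccl34b.1+ libraries, against 2105, 1549.9, 1295, 1548 and 2252 CPM in ccl34b.1- libraries. Its groups came close without overlapping, and its log2 fold change was 0.93 ± 0.22 (adjusted p = 0.0269), which no longer passed without ccl34b.1+ library 1 (adjusted p = 0.0687). FOS, the usual partner of JUN proteins, had 4464, 3939.7, 2305, 3428 and 4743 CPM in ccl34b.1+ libraries, against 1059, 866, 629, 1690.0 and 1029 CPM in ccl34b.1- libraries. Its highest ccl34b.1- library, number 4, stayed below its lowest ccl34b.1+ library, number 3. The log2 fold change of FOS was 1.84 ± 0.27 (adjusted p = 0.00118).

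The EGR factors showed the same order of gates. For egr1 the ccl34b.1+ libraries held 3040.5, 1778, 2709, 2756 and 2312 CPM and the ccl34b.1- libraries 315, 238, 191, 1113 and 520.0 CPM. Number 4 stood well above the other ccl34b.1- libraries and still below every ccl34b.1+ library (log2 fold change 2.41 ± 0.42, adjusted p = 0.00382, and 3.04 without that library). EGR3, which egr1 resembles in its DNA-binding zinc fingers, had 2991, 2601, 2144, 1887 and 1612 CPM in ccl34b.1+ libraries, against 234, 53.0, 294, 603 and 211 CPM in ccl34b.1- libraries. Its groups were widely separated, and ccl34b.1- library 2 was the lowest (3.01 ± 0.47, adjusted p = 0.00182).

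Of the feedback genes, ZFP36L1 ENSDARG00000021443 had 4080.3, 2791, 2408, 2355 and 2028 CPM in ccl34b.1+ libraries, against 239, 736, 503, 443 and 464 CPM in ccl34b.1- libraries. Every ccl34b.1+ library was above every ccl34b.1- library, and the log2 fold change was 2.52 ± 0.30 (adjusted p = 0.000159). DUSP2 stood at 5392, 3665, 2932, 3211 and 3722 CPM in ccl34b.1+ libraries, against 0.653 (8 counts), 198, 143, 764 and 246 CPM in ccl34b.1- libraries. The groups did not overlap, but ccl34b.1- library 1, with only 8 counts of DUSP2, spread its group over a factor of 1169. DUSP2 was the gene of the 7 that did not pass (3.81 ± 1.07, adjusted p = 0.0993), and it passed without that library (adjusted p = 0.00107) or without ccl34b.1- library 4 (adjusted p = 0.0443). The same library of the untreated experiment was lowest for ZFP36L1 as well, and ccl34b.1- library 4 was the highest of its group for 5 of the 7 genes. In the ccl34b.1+ group, library 1 was the highest for 6 of the 7.

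Related genes were read from 9 lists, which include the 7 genes, in the same fit. Among the FOS family, 3 of 4 tested members were higher in ccl34b.1+ cells and 0 lower, with a median log2 fold change of 2.53. FOSL1, a FOS-related subunit chosen after its values were seen, averaged 1407 ± 347 CPM in ccl34b.1+ cells and 54.6 ± 40.1 CPM in ccl34b.1- cells (SD, n = 5 each; adjusted p = 0.00563). Of 4 JUN family genes, 2 were higher and 0 lower, namely both JUNB IDs (median 0.46). Of 7 EGR and NAB genes tested, 3 were higher and 0 lower (median 2.41). EGR2, another EGR factor, averaged 240.5 ± 133 CPM in ccl34b.1+ cells against 17 counts in all 5 ccl34b.1- libraries (log2 fold change 9.97 ± 1.64, adjusted p = 0.00244). Of 10 ATF, MAF, BATF and JDP partners, 1 was higher and 1 lower (median 0.84). The lower one was BATF3, an AP-1 partner known from mammalian conventional dendritic cells and also among the dendritic cell markers, with 0.301 ± 0.61 CPM in ccl34b.1+ and 259.1 ± 215 CPM in ccl34b.1- cells (adjusted p = 0.0228; chosen after its values were seen). Of 8 mRNA decay genes, 2 were higher and 0 lower (median 0.98). They were ZFP36L1 ENSDARG00000021443 and TOB1, an adaptor of mRNA deadenylation, at 756 ± 309 against 203 ± 40.0 CPM (adjusted p = 0.00354).

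The phosphatase and Sprouty list, inhibitors of MAP kinase signalling, had 2 of 11 genes higher and 0 lower (median 0.47). They were DUSP5, a nuclear ERK phosphatase, at 1422 ± 204 against 450.1 ± 164 CPM, and SPRY4, a Sprouty inhibitor, at 141 ± 40.6 against 0.516 ± 0.887 CPM (adjusted p = 0.0039 and 0.00752; both chosen after their values were seen). Of 24 other immediate early genes, 3 were higher and 1 lower (median 0.60). Among them mcl1a, an anti-apoptotic BCL2 relative, averaged 5003 ± 903 CPM in ccl34b.1+ and 2243 ± 486 CPM in ccl34b.1- cells (adjusted p = 0.00355). The lower one, csrnp1a, had 0 counts in the 5 ccl34b.1+ libraries and 79.4 ± 75.1 CPM in ccl34b.1- libraries (adjusted p = 0.00794; chosen after its values were seen). None of 17 genes of the SRF, CREB and ERK list passed in either direction (median 0.07), nor any of 11 inducible heat shock genes (median 0.75). The summed level of the heat shock list was 289 to 1250 CPM in ccl34b.1+ and 112 to 648 CPM in ccl34b.1- libraries, ranges that overlapped.

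**Figure D2:**
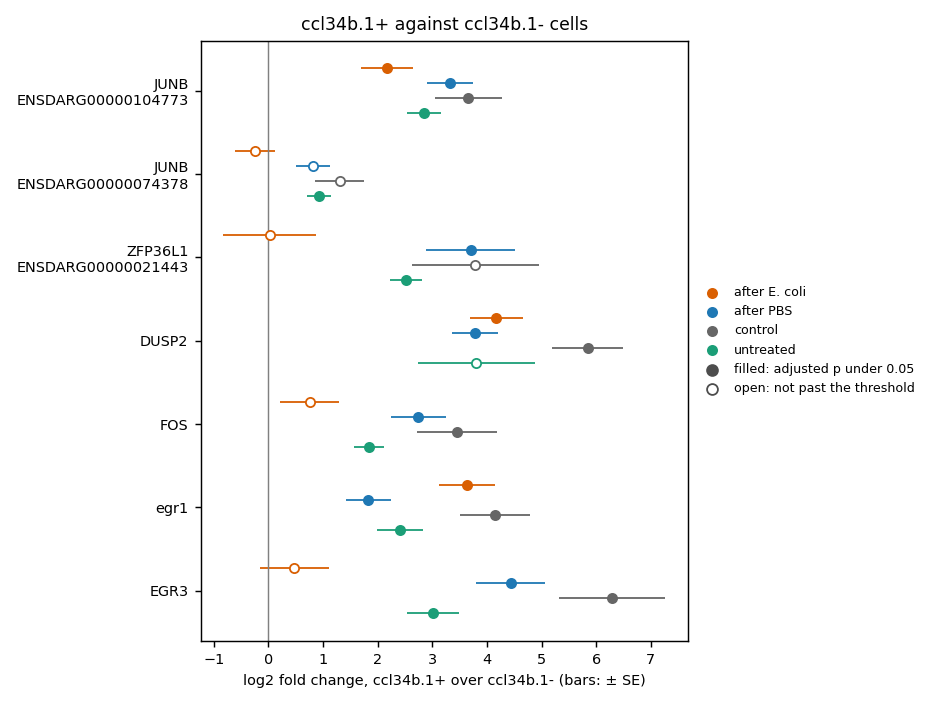
Log2 fold change of each gene, ccl34b.1+ over ccl34b.1- cells (x axis, bars ± SE), after E. coli, after PBS, in controls and in untreated fish. In untreated fish, controls and PBS-injected fish all 7 values were above 0, and after E. coli those of both JUNB ENSDARG00000074378 and ZFP36L1 lay near 0, at -0.25 and 0.02.

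The 2 control fish of the injection experiment gave the same contrast in another set of fish. DUSP2, EGR3, egr1, JUNB ENSDARG00000104773 and FOS passed, 5 of the 7 and all higher in ccl34b.1+ cells, where 0.869% of 12421 genes passed and 0.507% did so as higher. The median log2 fold change was 3.79 over the 7 genes and 0.00 over all genes tested. No gene of the 7 overlapped between the gates, but with 2 libraries each this held for 22.5% of the genes tested.

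JUNB ENSDARG00000104773 had 12000.5 and 11393 CPM in ccl34b.1+ libraries, against 764 and 1084 CPM in ccl34b.1- libraries of controls. FOS had 6669.7 and 6010.5 CPM in ccl34b.1+ libraries, against 494 and 662 CPM in ccl34b.1- libraries. Both AP-1 genes thus stood more than an order of magnitude apart on average, with log2 fold changes of 3.66 ± 0.61 (adjusted p = 0.00111) and 3.46 ± 0.73 (adjusted p = 0.0183). JUNB ENSDARG00000074378 had 9317 and 11004 CPM in ccl34b.1+ libraries, against 4127 and 4075 CPM in ccl34b.1- libraries, a smaller gap that did not pass (1.31 ± 0.45, adjusted p = 0.313).

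For egr1 the control values were 2222 and 2056 CPM in ccl34b.1+ libraries, against 146 and 94.4 CPM in ccl34b.1- libraries (log2 fold change 4.15 ± 0.64, adjusted p = 0.000168). EGR3 had 2564 and 2872 CPM in ccl34b.1+ libraries, against 35.7 and 33.7 CPM in ccl34b.1- libraries, which made it the widest gap of the 7 (6.29 ± 0.98, adjusted p = 0.00037). Neither EGR gene overlapped between the gates, and egr1 had the widest relative spread of the 7 in ccl34b.1- libraries, by a factor of 1.54. DUSP2 had 6607 and 4880.4 CPM in ccl34b.1+ libraries, against 106 and 94.4 CPM in ccl34b.1- libraries (5.84 ± 0.65, adjusted p = 5.67e-07). ZFP36L1 ENSDARG00000021443 had 2291 and 4957 CPM in ccl34b.1+ libraries, against 272 and 253 CPM in ccl34b.1- libraries. The ccl34b.1+ libraries of ZFP36L1 differed by a factor of 2.16, and its log2 fold change of 3.79 ± 1.16 did not pass (adjusted p = 0.293).

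With 1 control library left out, a lone library is assumed to vary like the other groups. FOS then lost its call in each of the 4 fits (adjusted p up to 0.815). JUNB ENSDARG00000104773 lost it without ccl34b.1+ library 1 or either ccl34b.1- library (adjusted p = 0.0641, 0.131 and 0.304), and EGR3 without either ccl34b.1- library (adjusted p = 0.0716 and 0.0856). The call of ZFP36L1 turned on a library outside the comparison: without E. coli ccl34b.1- library 1, which enters the shared estimate of the spread, its adjusted p was 8.71e-05. That setting was added after the data were seen.

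After PBS all 7 genes again averaged higher in ccl34b.1+ cells. All except JUNB ENSDARG00000074378 passed, 6 of the 7 and each higher, where 2.69% of 12421 genes passed and 1.21% did so as higher. The median log2 fold change was 3.33 over the 7 genes and -0.11 over all genes tested. The gates did not overlap in 5 of the 7 genes, against 5.1% of the genes tested.

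JUNB ENSDARG00000104773 stood at 13468, 5797, 9382 and 11772 CPM in ccl34b.1+ libraries 1 to 4 after PBS, against 2010.2, 654, 981 and 385 CPM in ccl34b.1- libraries (log2 fold change 3.33 ± 0.43, adjusted p = 1.19e-05). FOS stood at 7719, 1557, 7896 and 6502 CPM in ccl34b.1+ libraries, against 1077, 721, 995 and 735 CPM in ccl34b.1- libraries (2.75 ± 0.50, adjusted p = 0.00185). In both genes ccl34b.1+ library 2 was the lowest of its group and still above every ccl34b.1- library. JUNB ENSDARG00000074378 stood at 11457, 5146, 5473 and 8645 CPM in ccl34b.1+ libraries, against 3024, 3525, 4095 and 6798 CPM in ccl34b.1- libraries. Here ccl34b.1- library 4 reached into the range of the ccl34b.1+ libraries, and the gene did not pass (0.82 ± 0.31, adjusted p = 0.168).

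For egr1 the ccl34b.1+ libraries after PBS held 1674, 664, 1616 and 993 CPM and the ccl34b.1- libraries 162, 285, 707 and 241 CPM. The groups overlapped, because ccl34b.1+ library 2 fell just under ccl34b.1- library 3, and egr1 passed nonetheless (1.83 ± 0.41, adjusted p = 0.00726, and 2.43 without ccl34b.1- library 3). EGR3 held 2088, 448, 1938 and 927 CPM in ccl34b.1+ libraries, against 73.6, 60.9, 74.6 and 40.8 CPM in ccl34b.1- libraries. Its lowest ccl34b.1+ library, again number 2, was several times its highest ccl34b.1- library (4.43 ± 0.63, adjusted p = 4.27e-05).

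DUSP2 had 6147, 1365, 4453 and 4599 CPM in ccl34b.1+ libraries after PBS, against 333, 297, 412 and 164 CPM in ccl34b.1- libraries (3.78 ± 0.41, adjusted p = 1.6e-07). ZFP36L1 ENSDARG00000021443 had 3901, 3108, 2789 and 3458 CPM in ccl34b.1+ libraries, against 128, 138, 276 and 475 CPM in ccl34b.1- libraries (3.70 ± 0.82, adjusted p = 0.0226). Neither feedback gene overlapped between the gates, and ZFP36L1 was the most even of the 7 within the ccl34b.1+ group, with a factor of 1.40 between its libraries. Its call was lost without any one of ccl34b.1+ libraries 1, 3 and 4 or ccl34b.1- libraries 1, 2 and 3 (adjusted p = 0.0522 to 0.0822). Library 1 was the highest ccl34b.1+ library for 6 of the 7 genes and library 2 the lowest for 6.

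Other FOS family and EGR genes were also higher in ccl34b.1+ cells of controls and of PBS-injected fish. Of 5 FOS family genes tested, 3 were higher and 0 lower in ccl34b.1+ cells of controls (median log2 fold change 3.46), and 4 were higher and 0 lower after PBS (median 2.75). FOSL1 averaged 2732 ± 895 CPM in ccl34b.1+ and 69.4 ± 10.9 CPM in ccl34b.1- cells of controls (SD, n = 2 each; adjusted p = 0.0261). FOSL2, a further FOS-related subunit, averaged 1369 ± 279 CPM in ccl34b.1+ and 475 ± 190.2 CPM in ccl34b.1- cells after PBS (SD, n = 4 each; adjusted p = 0.00904). Of 8 EGR and NAB genes, 3 were higher and 0 lower in each, with medians of 4.62 in controls and 2.78 after PBS. Besides egr1 and EGR3 this was egr2a, which averaged 999 ± 540 CPM in ccl34b.1+ and 68.7 ± 54.3 CPM in ccl34b.1- cells after PBS (adjusted p = 0.00068). Among 4 JUN family genes 1 passed in each, JUNB ENSDARG00000104773, and the medians were 0.25 and -0.05. Of 9 mRNA decay genes 0 passed in controls and 3 were higher after PBS, of 13 phosphatase and Sprouty genes 1 was higher in each, and that gene was DUSP2. BATF3 was the 1 gene called of 11 ATF, MAF, BATF and JDP partners in each and was lower in ccl34b.1+ cells. Of the 14 heat shock genes 0 passed in either. Their summed level was 31100 to 31500 CPM in ccl34b.1+ and 8480 to 15600 CPM in ccl34b.1- libraries of controls, and 4120 to 12500 against 2970 to 17800 CPM after PBS. The part of the heat shock level in these gate differences was not tested.

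After E. coli the gate difference passed in a minority of these genes. DUSP2, egr1 and JUNB ENSDARG00000104773 were higher in ccl34b.1+ cells, 3 of the 7, where 2.31% of 12421 genes passed and 0.886% did so as higher. The same 3 genes had no overlap between the gates, against 8.12% of the genes tested. The median log2 fold change was 0.76 over the 7 genes and -0.10 over all genes tested.

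JUNB ENSDARG00000104773 had 1800.0, 2212 and 3134 CPM in ccl34b.1+ libraries 1 to 3 after E. coli, against 358, 322 and 908 CPM in ccl34b.1- libraries. The groups stayed apart (log2 fold change 2.17 ± 0.47, adjusted p = 0.00921), but the call was lost without ccl34b.1+ library 3 (adjusted p = 0.0509) or ccl34b.1- library 1 (adjusted p = 0.0546), and the value was 2.84 without ccl34b.1- library 3. DUSP2 had 1249, 2138 and 2600.1 CPM in ccl34b.1+ libraries, against 151, 50.5 and 131 CPM in ccl34b.1- libraries (4.17 ± 0.49, adjusted p = 1.23e-06). For egr1 the values were 878, 954 and 556 CPM in ccl34b.1+ libraries, against 59.8, 82.1 and 49.6 CPM in ccl34b.1- libraries (3.64 ± 0.51, adjusted p = 2.3e-05). Both genes stood far apart between the gates, and both calls held without any one library.

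FOS had 536, 413 and 837 CPM in ccl34b.1+ libraries after E. coli, against 259.8, 89.5 and 707 CPM in ccl34b.1- libraries (0.76 ± 0.54, adjusted p = 0.467). EGR3 had 120.3, 95.4 and 80.6 CPM in ccl34b.1+ libraries, against 4.87 (24 counts), 79.8 and 128 CPM in ccl34b.1- libraries (0.47 ± 0.63, adjusted p = 0.767). In both the gates overlapped and ccl34b.1- library 3 was the highest of its group. ZFP36L1 ENSDARG00000021443 had 328, 252 and 243 CPM in ccl34b.1+ libraries, against 7.5 (37 counts), 387 and 414 CPM in ccl34b.1- libraries (0.02 ± 0.85, adjusted p = 1). JUNB ENSDARG00000074378 had 1307, 1683 and 2328 CPM in ccl34b.1+ libraries, against 1593, 1194 and 3524 CPM in ccl34b.1- libraries (-0.25 ± 0.36, adjusted p = 0.794). These 2 genes overlapped as well, and for JUNB ENSDARG00000074378 the highest library of all 6 was a ccl34b.1- one. The directions of both, and of EGR3, turned when single libraries were left out.

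Among the lists, 2 of 8 EGR and NAB genes were higher in ccl34b.1+ cells after E. coli and 0 lower (median log2 fold change 1.69), namely egr1 and egr2a, which averaged 304 ± 117 against 15.8 ± 13.3 CPM (SD, n = 3 each; adjusted p = 0.00206). Of 5 FOS family genes 1 was higher, FOSL1 (1308 ± 103 against 91.6 ± 90.2 CPM, adjusted p = 0.0188; chosen after its values were seen). Of 4 JUN family genes 1 was higher and 1 lower (median -0.88). The lower one was JUN, the founding AP-1 subunit of its family, at 339 ± 48.1 CPM in ccl34b.1+ and 2587 ± 1341 CPM in ccl34b.1- cells (-2.93 ± 0.46, adjusted p = 0.00012). Of 23 genes of the SRF, CREB and ERK list 1 was lower, mrtfab, an SRF coactivator, at 4.54 ± 2.44 against 122 ± 108 CPM (adjusted p = 0.000958). Of 14 heat shock genes 2 were higher, hsp70.3 and hsp70.1 (adjusted p = 0.0133 and 0.0371; chosen after their values were seen), and the summed list stood at 9060 to 15200 CPM in ccl34b.1+ and 1770 to 5450 CPM in ccl34b.1- libraries without overlap.

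**Figure D3:**
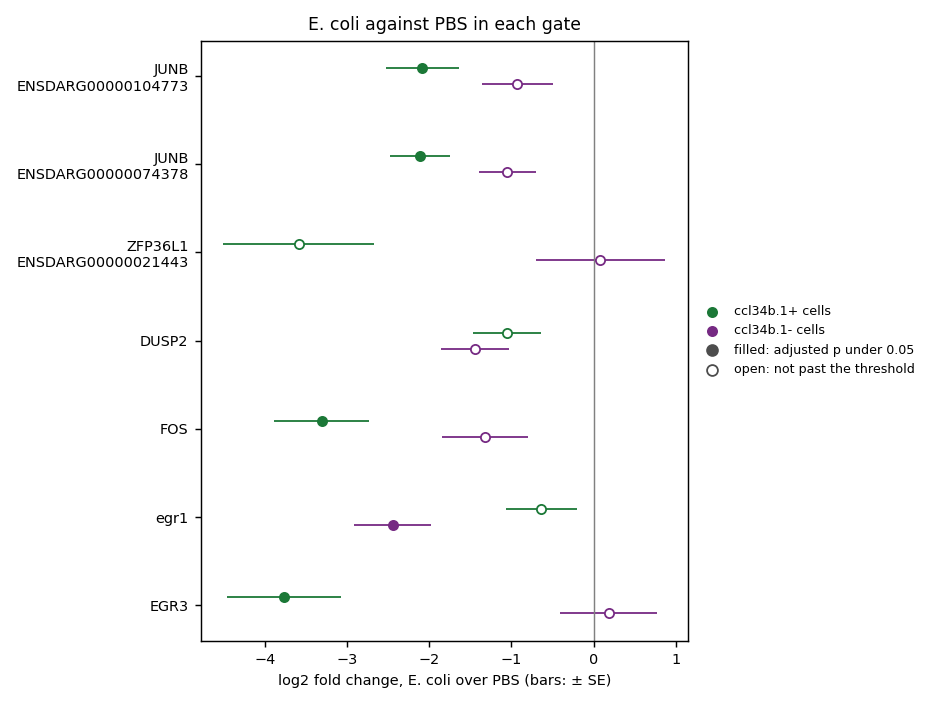
Log2 fold change of each gene, E. coli over PBS (x axis, bars ± SE), in ccl34b.1+ and ccl34b.1- cells. In ccl34b.1+ cells FOS, EGR3 and both JUNB IDs passed the threshold below 0, and in ccl34b.1- cells egr1 did, at -2.45.

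The next comparison set E. coli against PBS within ccl34b.1+ cells. FOS, EGR3 and both JUNB IDs fell, by 4.24-fold to 13.7-fold, so that 4 of the 7 passed as lower, where 1.51% of 12421 genes passed and 0.813% did so as lower. The median log2 fold change was -2.12 over the 7 genes and -0.19 over all genes tested. The groups did not overlap in 5 of the 7, against 6.93% of the genes tested.

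Both JUNB IDs fell, by 4.24-fold and 4.33-fold. JUNB ENSDARG00000104773 averaged 2382 ± 683 CPM after E. coli and 10105 ± 3325 CPM after PBS (SD, n = 3 and 4), with no overlap between the libraries listed above and a log2 fold change of -2.08 ± 0.45 (adjusted p = 0.0118). Its call was lost without E. coli ccl34b.1+ library 1 (adjusted p = 0.0992) or 2 (adjusted p = 0.0865). JUNB ENSDARG00000074378 averaged 1773 ± 516 CPM after E. coli and 7680.3 ± 2972 CPM after PBS, again without overlap (-2.12 ± 0.36, adjusted p = 0.000477). FOS averaged 595 ± 218 CPM after E. coli and 5918 ± 2973 CPM after PBS (-3.31 ± 0.58, adjusted p = 0.00211). Even the lowest PBS library of FOS, number 2 at 1557 CPM, lay above the highest E. coli library at 837 CPM. EGR3 averaged 98.8 ± 20.0 CPM after E. coli and 1350.2 ± 792 CPM after PBS (-3.77 ± 0.69, adjusted p = 0.00211). Its E. coli libraries were nearly level with each other and all below the lowest PBS library at 448 CPM.

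ZFP36L1 ENSDARG00000021443 averaged 274 ± 46.4 CPM after E. coli and 3314 ± 478 CPM after PBS, the smallest relative spread of the 7 in either group, with no overlap. It did not pass in the shared fit (-3.60 ± 0.92, adjusted p = 0.0777). Without E. coli ccl34b.1- library 1, where ZFP36L1 had 37 counts and which is no part of this comparison, the value was the same and the adjusted p was 3.79e-06. The count of genes lower was then 5 of 7, as it was with the ccl34b.1+ libraries of both groups fitted alone (ZFP36L1 adjusted p = 8.21e-05). The fit of both groups alone called 320 genes in all, against 188 in the shared fit. The total called without E. coli ccl34b.1- library 1 is not given here. DUSP2 averaged 1996 ± 687 CPM after E. coli and 4141 ± 2003 CPM after PBS (-1.05 ± 0.41, adjusted p = 0.257), and PBS library 2 lay inside the E. coli range. For egr1 the means were 796 ± 212 CPM after E. coli and 1237 ± 491 CPM after PBS, with overlap (-0.64 ± 0.44, adjusted p = 0.518). DUSP2 and egr1, the pair that did not pass on either setting, were also those with the widest gaps between the gates after E. coli.

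The microglia markers moved with these genes. Their sum was 5420 to 9440 CPM after E. coli and 50500 to 75000 CPM after PBS in ccl34b.1+ libraries, with none of the 14 markers at 0 in either group. The macrophage marker sum was 12800 to 17000 CPM after E. coli and 4600 to 5830 CPM after PBS. The heat shock sum was 9060 to 15200 CPM after E. coli and 4120 to 12500 CPM after PBS, with overlap, and 0 of 14 heat shock genes passed. The part of these markers in the fall of the immediate early genes was not tested.

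Other AP-1 genes were lower after E. coli as well. Of 4 JUN family genes 3 fell and 0 rose (median log2 fold change -1.97), both JUNB IDs and JUN, which stood at 339 ± 48.1 CPM after E. coli and 1230.4 ± 371 CPM after PBS (-1.86 ± 0.42, adjusted p = 0.0128; chosen after its values were seen). Of 5 FOS family genes 2 fell and 0 rose (median -1.84), FOS and FOSL2, the second at 384 ± 71.1 against 1369 ± 279 CPM (adjusted p = 0.0071; chosen after its values were seen). FOSL1 stood at 1308 ± 103 CPM after E. coli and 1830.4 ± 784 CPM after PBS and did not pass (adjusted p = 0.896). Of 11 ATF, MAF, BATF and JDP partners 1 fell (median -0.11), JDP2 ENSDARG00000020133, a dimer partner of JUN proteins known to repress AP-1 targets in mammals, at 27.8 ± 32.5 against 523 ± 362 CPM (-4.23 ± 0.70, adjusted p = 0.000323). Of 8 EGR and NAB genes EGR3 alone passed (median -2.52). Of 9 mRNA decay genes 1 fell and 1 rose (median -1.50). The one that fell was the other ID of the same name, ZFP36L1 ENSDARG00000016154, at 66.9 ± 28.3 against 448 ± 120.1 CPM (-2.74 ± 0.62, adjusted p = 0.0128). The one that rose was ZC3H12A ENSDARG00000101034, an endoribonuclease of inflammatory mRNAs, at 1277 ± 206 against 427 ± 39.8 CPM (adjusted p = 0.0357). Both were chosen after their values were seen.

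Of 13 phosphatase and Sprouty genes 0 passed (median 0.00), and of 28 other immediate early genes 1 fell (median -0.88). It was mcl1a, at 4155 ± 205 CPM after E. coli and 10430.3 ± 2680.3 CPM after PBS (-1.33 ± 0.28, adjusted p = 0.00632). Of 23 genes of the SRF, CREB and ERK list 2 fell (median -0.37), among them mrtfab, at 4.54 ± 2.44 against 75.1 ± 26.1 CPM (adjusted p = 0.00416).

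**Figure D4:**
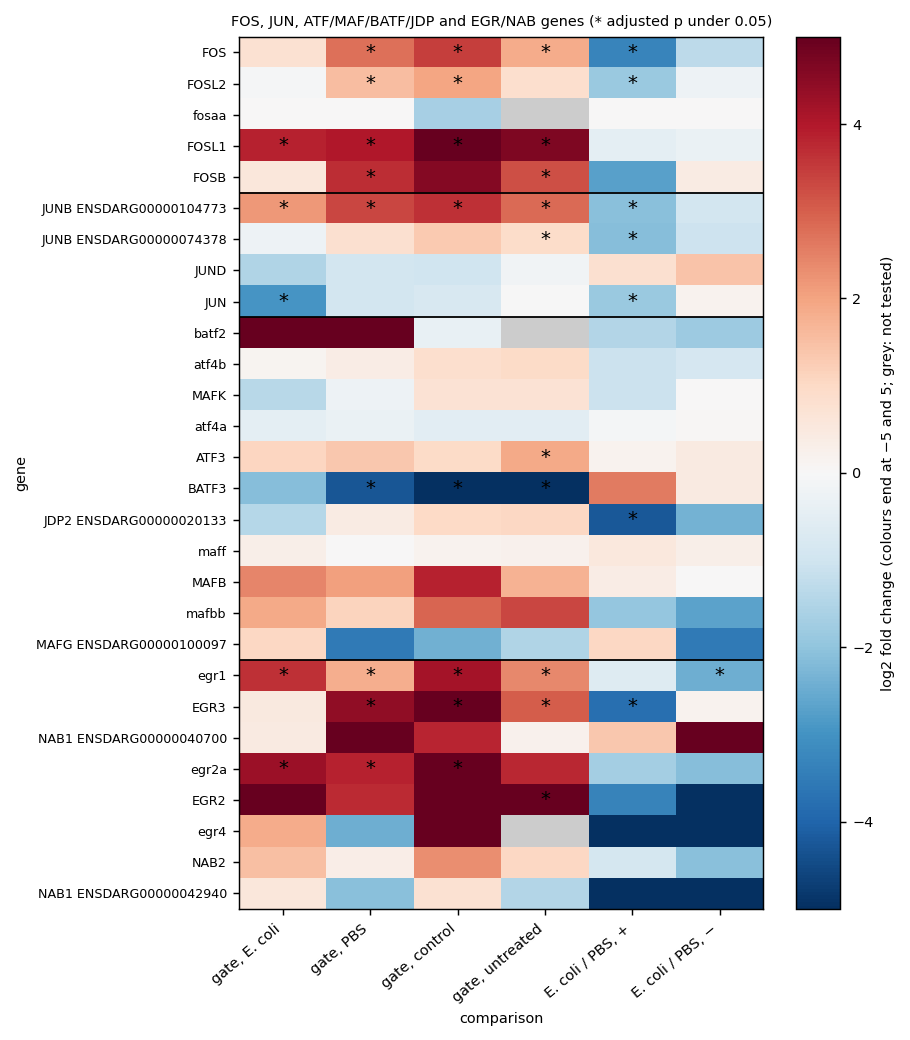
Log2 fold changes (colour, ending at -5 and 5) of the FOS, JUN, ATF/MAF/BATF/JDP and EGR/NAB genes (rows) in 6 comparisons (columns), with a star where the adjusted p was under 0.05 and grey where a gene was not tested. FOS family and EGR genes are mostly red between the gates, JUN and JUND are not, and the column of E. coli over PBS in ccl34b.1+ cells carries 7 stars, all blue.

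In ccl34b.1- cells the same contrast left 1 of the 7 past the threshold, egr1, which was lower after E. coli, where 0.403% of 12421 genes passed and 0.169% did so as lower. It averaged 63.8 ± 16.6 CPM after E. coli and 349 ± 244 CPM after PBS (SD, n = 3 and 4; -2.45 ± 0.47, adjusted p = 0.00838), without overlap. The call was lost without PBS ccl34b.1- library 3, the highest of its group (-1.84, adjusted p = 0.0541), and with the ccl34b.1- libraries of both groups fitted alone (adjusted p = 0.238). DUSP2 averaged 111 ± 53.1 CPM after E. coli and 301 ± 103 CPM after PBS (-1.44 ± 0.42, adjusted p = 0.137). FOS averaged 352 ± 319 CPM after E. coli and 882 ± 181 CPM after PBS (-1.32 ± 0.53, adjusted p = 0.235). Neither DUSP2 nor FOS overlapped between the treatments, and with egr1 they made 3 of the 7 that lay lower without overlap, against 4.42% of the genes tested. The values of JUNB ENSDARG00000104773 and JUNB ENSDARG00000074378 were -0.93 ± 0.43 and -1.05 ± 0.35 (adjusted p = 0.246 and 0.197). Those of ZFP36L1 and EGR3 were 0.08 ± 0.79 and 0.19 ± 0.59 (adjusted p = 1 and 0.943), and their E. coli groups hold the library with 37 and 24 counts of these genes. Without E. coli ccl34b.1- library 3, the highest of its group for 5 of the 7 genes, FOS stood at -2.40 (adjusted p = 0.0156) and JUNB ENSDARG00000074378 at -1.73 (adjusted p = 0.0207), and both passed. The median was -1.05 over the 7 genes and -0.08 over all genes tested. DESeq2 called 4 of the 7 lower here, JUNB ENSDARG00000074378, DUSP2 and FOS besides egr1. It called 1177 of the 12421 genes in either direction, against 50 by edgeR.

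Cell type markers moved with this contrast as well. In ccl34b.1- libraries the neutrophil marker sum was 5.07 to 2360 CPM after E. coli (median 1790) and 1.12 to 20.7 CPM after PBS, with overlap. The dendritic cell marker sum was 1960 to 5280 CPM after E. coli and 5810 to 11200 CPM after PBS, and the macrophage marker sum 3280 to 5370 against 7690 to 9120 CPM, both without overlap. The microglia marker sum was 807 to 2260 CPM after E. coli and 1650 to 4820 CPM after PBS. The part of these markers in the values of the 7 genes was not tested.

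Whether E. coli against PBS differed between the gates was tested as an interaction, the log2 fold change in ccl34b.1+ cells minus that in ccl34b.1- cells. EGR3 passed at -3.96 ± 0.87 (adjusted p = 0.0447), 1 of the 7, where 0.274% of 12421 genes passed and 0.145% did so with a negative value. EGR3 fell after E. coli in ccl34b.1+ cells, while its ccl34b.1- libraries stood at 71.0 ± 62.2 CPM after E. coli and 62.5 ± 15.8 CPM after PBS. The call was lost in 12 of 14 fits that left out 1 library (adjusted p up to 0.164) and held without PBS ccl34b.1+ library 2 or E. coli ccl34b.1- library 1. The interaction of ZFP36L1 was -3.68 ± 1.16 (adjusted p = 0.214), that of FOS -1.99 ± 0.72 (adjusted p = 0.236) and that of egr1 1.81 ± 0.61 (adjusted p = 0.214). For egr1 the sign was positive, since its difference between treatments was larger in ccl34b.1- cells, but it did not pass. Both JUNB IDs (-1.16 ± 0.60 and -1.06 ± 0.48) and DUSP2 (0.39 ± 0.57) did not pass either. ZFP36L1 passed without E. coli ccl34b.1- library 1 (-4.25, adjusted p = 0.000192), with DESeq2 (adjusted p = 0.0199) and with no filter (adjusted p = 9.48e-07), and FOS passed with no filter (adjusted p = 0.0132). Without E. coli ccl34b.1- library 3 the value of EGR3 was -3.10 and that of FOS -0.90.

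PBS against controls changed none of the 7 genes past the threshold in either gate. edgeR called 0 of 12421 genes (0%) in ccl34b.1+ cells and 0 (0%) in ccl34b.1- cells, with 628 and 642 genes at an unadjusted p under 0.05. DESeq2 called 82 and 127 genes, of which none was among the 7. The largest difference in ccl34b.1+ cells was that of EGR3, at 1350.2 ± 792 CPM after PBS and 2718 ± 218 CPM in controls (SD, n = 4 and 2; -1.01 ± 0.65, adjusted p = 1). In ccl34b.1- cells DUSP2 averaged 301 ± 103 CPM after PBS and 100.0 ± 8.0 CPM in controls (1.59 ± 0.49), and egr1 349 ± 244 against 120.1 ± 36.4 CPM (1.54 ± 0.53), with an unadjusted p of 0.0028 and 0.00627 and an adjusted p of 0.943 for each. The PBS libraries serve in this comparison and in that with E. coli, so the values of both share them. The summed level of the 7 genes was 6218 to 9778 CPM after E. coli, 18084 to 46453 CPM after PBS and 41671 to 43173 CPM in controls in ccl34b.1+ libraries. In ccl34b.1- libraries it was 2204 to 5863 CPM after E. coli, 5681 to 8838 CPM after PBS and 5944 to 6296 CPM in controls.

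Ordered by mean CPM over the 6 groups of the injection experiment, control ccl34b.1+ cells were the highest and PBS ccl34b.1+ cells next for all 7 genes. Those neighbours overlapped in 5 genes and not in egr1 and EGR3, neither of which passed between them. With 4 and 2 libraries, the share of all genes without such overlap was not counted. E. coli ccl34b.1+ cells came next for JUNB ENSDARG00000104773, ZFP36L1, DUSP2, egr1 and EGR3. For DUSP2 that group stood clear of every ccl34b.1- group, and for JUNB ENSDARG00000104773, ZFP36L1, egr1 and EGR3 its libraries overlapped those of the next group down. FOS in E. coli ccl34b.1+ cells ranked below PBS ccl34b.1- cells, at 595 against 882 CPM with overlap. JUNB ENSDARG00000074378 in E. coli ccl34b.1+ cells was the lowest of the 6 groups, overlapping E. coli ccl34b.1- cells.

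**Figure D5:**
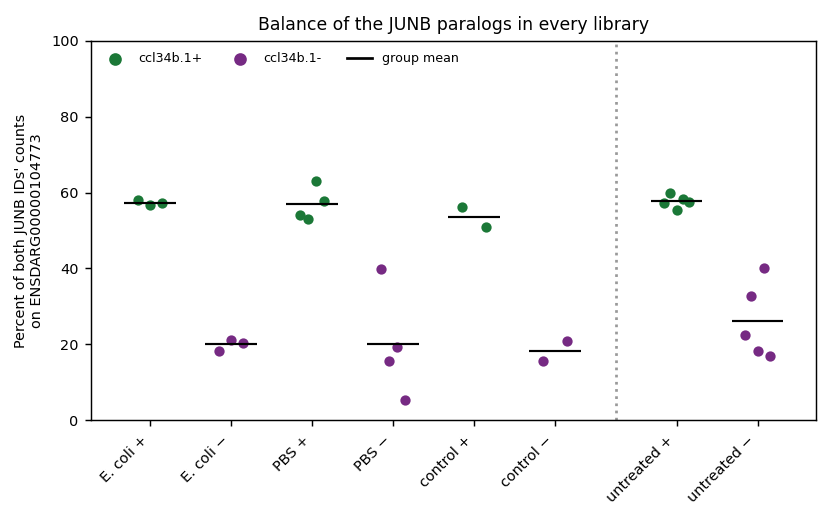
Percent of the counts of both JUNB IDs that lay on ENSDARG00000104773 (y axis) in every library by treatment and gate (x axis), with group means as black bars. The ccl34b.1+ libraries sit between 50.9% and 63.2%, and the ccl34b.1- libraries between 5.36% and 40.2%.

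The JUNB paralogs were also compared within each library, which needs no scaling between libraries. ENSDARG00000104773 took 57.7% ± 1.64 of the counts of both IDs in the ccl34b.1+ libraries of untreated fish and 26.2% ± 10.0 in their ccl34b.1- libraries (SD, n = 5 each). Library by library this was 57.2, 60.0, 55.5, 58.4 and 57.5% against 22.6, 32.7, 18.2, 40.2 and 17.1%. No libraries overlapped, and the difference of 31.6 percentage points had p = 0.00794 in a two-sided exact permutation test, the smallest it can give (0.0238 adjusted over 3 such tests). After PBS the share was 57.0% ± 4.60 in ccl34b.1+ and 20.1% ± 14.5 in ccl34b.1- libraries (n = 4 each), a difference of 36.9 points (exact permutation p = 0.0286, the smallest possible, 0.0429 adjusted). Without any one of the PBS ccl34b.1+ libraries the exact permutation p was 0.0571, so the difference no longer passed. The smallest p that 3 against 4 libraries can give is 0.0286. Both gate tests of the share took the gates as unpaired, and paired sign-flip tests are given at the end. Control libraries held 56.3 and 50.9% against 15.6 and 21.0%. After E. coli the shares were 57.9, 56.8 and 57.4% in ccl34b.1+ libraries, against 18.4, 21.3 and 20.5% in ccl34b.1- libraries.

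Within ccl34b.1+ cells the balance stood at 57.4% ± 0.572 after E. coli and 57.0% ± 4.60 after PBS, a difference of 0.41 points (exact permutation p = 0.971; adjusted 0.971). Both IDs were lower after E. coli, and their balance differed by less than the spread between replicates. The exact (Clopper-Pearson) 95% interval of a single library's share was at most 1.96 points wide, for the sampling of reads alone. It takes reads as independent, although PCR copies of a molecule were not told apart. Reads of near-identical stretches could be split between the paralogs by the counting, and the sources used here do not say how multi-mapped reads were handled.

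Across the 18 injection libraries the 7 genes varied together, as a description without a test, since the libraries share gate, treatment and depth. Pearson correlations of log2 CPM over the 21 pairs ran from 0.508 to 0.927 (median 0.802). Over the 9 ccl34b.1+ libraries they ran from 0.601 to 0.986 (median 0.855), and over the 9 ccl34b.1- libraries from -0.176 to 0.835 (median 0.42). Both JUNB IDs made the closest pair within ccl34b.1+ libraries, at 0.986, and stood at 0.374 within ccl34b.1- libraries. ZFP36L1 and EGR3 stood at 0.920 within ccl34b.1+ and 0.835 within ccl34b.1- libraries. Both were at their lowest in E. coli ccl34b.1- library 1, with 37 and 24 counts. Their correlation without that library was not computed.

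The genes most like each of the 7 over these libraries were sought among 4447 tested genes averaging 20 CPM or more. The 3 given for each leave out the 7 themselves and genes without a proper name. Among the 7, egr1 and DUSP2 correlated at 0.927 and ZFP36L1 and EGR3 at 0.925, above any other gene for egr1, ZFP36L1 and EGR3. Outside the 7, FOS was closest to MYD88, the adaptor of Toll-like receptors, at r = 0.957, GADD45B ENSDARG00000013576, a stress-response gene, at 0.956 and ier2b, an immediate early gene, at 0.943. EGR3 was closest to MYD88 at 0.909, with ELMO1 and LAMB1 ENSDARG00000101209 at 0.894 each, and ZFP36L1 to ELMO1 at 0.905, tifa at 0.896 and GLUL ENSDARG00000099776 at 0.871. ELMO1 acts in engulfment of dying cells. JUNB ENSDARG00000104773 was closest to apoeb and apoc1, apolipoproteins and markers of zebrafish microglia, at 0.953 each, and to cldc1 at 0.938. DUSP2 was closest to P2RY12, a purinergic receptor of microglia, at 0.945, with sdc4 and apoeb at 0.939 each, and egr1 to CMKLR1 ENSDARG00000090890 at 0.920, P2RY12 at 0.896 and fcer1gl at 0.886. JUNB ENSDARG00000074378 instead was closest to atf4b, a stress-response transcription factor, at 0.952, mcl1a at 0.923 and cirbpa, a cold-inducible RNA-binding protein gene, at 0.906. Among the 20 genes most like it, 7 were on the lists, against 0 for DUSP2 and 5 for FOS, where 68 of the 4447 genes were. The values over 18 libraries include the differences between gates and treatments, and many were lower within a gate. Within ccl34b.1+ libraries alone the correlation of DUSP2 with P2RY12 was 0.308, and that of JUNB ENSDARG00000074378 with atf4b was 0.958. Over all the named pairs they ran from 0.308 to 0.978 within ccl34b.1+ libraries. Within ccl34b.1- libraries they ran from 0.109 (EGR3 with LAMB1 ENSDARG00000101209) to 0.968 (JUNB ENSDARG00000074378 with atf4b).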

How the data were processed

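RNA of 28 libraries was amplified by Smart-seq2 with 24 and then 12 PCR cycles and no molecular identifiers, per the labels' protocols. Intervals thus cover the sampling of reads only, not that of molecules. The authors deposited whole-number counts of reads per gene, and per the submitters' processing notes they used STAR, featureCounts and DESeq2 with GRCz11 (danRer11). The sources used here do not give versions, strand or the handling of multi-mapped reads, so paralogs and overlapping or antisense genes are uncertain. A table of names covered 29201 of the 32520 IDs and often uses human symbols. No genome was used.

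The tests were two-sided quasi-likelihood tests (glmQLFit with robust = TRUE, then glmQLFTest) of edgeR 4.0.16, run in R 4.3.3 after filterByExpr and TMM scaling, with Benjamini-Hochberg adjustment over all genes tested and a threshold of 0.05. Adjusted p-values of genes come from edgeR where no tool is named. Untreated fish were fitted alone and the 18 injection libraries as 6 groups with 1 estimate of the spread. SE is the size of the log2 fold change divided by the square root of F. The fitting was also run on simulated data, and the outcome is not given here. On the count of fish by replicate number, libraries of a group came from separate fish, and no 2 columns were identical.

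The 7 genes and the 9 lists (185 symbols) were chosen with earlier results of these data known. All 7 genes are named. From the lists, up to 3 genes per comparison are named by smallest adjusted p among called genes whose higher group averaged 20 CPM or more. For likeness, the 3 named genes with the highest Pearson r of log2 CPM (prior count 2) are given per gene. Alternatives were DESeq2 size factors, no filter, DESeq2 1.42.0, other libraries in the fit, the replicate number as a block, leaving out each library, and the log2 ratio for the paralogs.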

Additional observations from a re-analysis of the deposited data

Results flagged for a closer look

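The effect of E. coli against PBS on EGR3 differed between the gates by the interaction test, with a log2 value of -3.96 ± 0.87 (ccl34b.1+ minus ccl34b.1-; edgeR, adjusted p = 0.0447). EGR3 averaged 98.8 CPM after E. coli and 1350.2 CPM after PBS in ccl34b.1+ cells, and 71.0 CPM after E. coli and 62.5 CPM after PBS in ccl34b.1- cells. Leaving out single libraries moved the value between -4.51 and -3.10, and the adjusted p passed the threshold in 2 of the 14 fits. No other value of the 7 genes or the paralog balance was singled out: on the linear CPM scale 0 of 32 checks found a library standing apart in the 4 groups of 4 or 5 libraries. Groups of 2 or 3, which include those after E. coli, were not checked, and the linear scale gives little weight to a very low library, such as that of DUSP2 in untreated ccl34b.1- cells.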

How the results depend on the processing

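Leaving out 1 library gave 5 to 7 genes called of the 7 in untreated gates, 2 to 6 in control gates, 5 to 6 in PBS gates, 2 to 3 in E. coli gates, 3 to 5 and 0 to 3 for E. coli against PBS in the ccl34b.1+ and ccl34b.1- gates, 0 for PBS against controls and 0 to 2 for the interaction. The totals called over all genes in these fits are not given here, so a general change in calls cannot be told apart. With 1 library left out, the paralog differences ran from 29.29 to 35.08, 31.98 to 43.51 and -0.92 to 2.47 points. The interaction count of 1 was 0 with DESeq2 size factors or the compared groups alone, 2 with DESeq2 or the replicate block and 3 with no filter. The count of 1 in ccl34b.1- cells (E. coli against PBS) was 4 with no filter or DESeq2 and 0 with the compared groups alone. The cause was not tested. Under the settings that keep every library, counts of the 7 in the other comparisons stayed within 1.5 times.

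Signs turned in values that did not pass. In ccl34b.1- cells, E. coli against PBS gave -0.15 for ZFP36L1 (DESeq2 size factors, and DESeq2) and, for EGR3, -0.1085, -0.108 (DESeq2) and -0.0581 (block). PBS against controls gave 0.0065 for ZFP36L1 with no filter and, with the block, -0.0608 and -0.2745 for JUNB ENSDARG00000104773 and ENSDARG00000074378. Leaving out libraries, E. coli gates ran from -0.53 to 0.38 (JUNB ENSDARG00000074378), -0.55 to 0.54 (ZFP36L1) and -0.076 to 1.28 (EGR3). E. coli against PBS in ccl34b.1- cells ran from -0.49 to 0.66 (ZFP36L1) and -0.67 to 0.74 (EGR3). PBS against controls ran from -0.58 to 0.53 (ZFP36L1) and -0.27 to 0.22 (FOS) in ccl34b.1+ cells, and from -0.44 to 0.40, -0.21 to 0.25 and -0.54 to 0.19 (the JUNB IDs and ZFP36L1) in ccl34b.1- cells.

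Same-numbered libraries of the gates correlated at 0.003 to 0.039, and the labels do not say that a number marks a fish. With the replicate block the counts were 6, 7, 6 and 3 in untreated, control, PBS and E. coli gates. The block totals over all genes in PBS and E. coli gates are not given here. Control gates gained JUNB ENSDARG00000074378 (adjusted p = 0.0315) and ZFP36L1 (adjusted p = 4.96e-08), and 5 of 5, 2 of 2, 2 of 4 and 3 of 3 libraries were closest to their own number. The correlations use deviations from the group mean, so with 2 control libraries per gate both match or neither does. Sign-flip tests of paired paralog differences gave exact p = 0.0625 for 31.56 points and 0.125 for 36.89, the smallest they can give. DESeq2 size factors shifted the median of all genes by -0.123 in PBS gates, by -0.209 for E. coli against PBS in the ccl34b.1- gate and by 0.198 for the interaction. Calls of the ccl34b.1- gate then split 24 higher to 36 lower (29 to 21 with TMM), and those of the interaction 18 to 11 (16 to 18 with TMM). Genes called by DESeq2 and edgeR were 584 and 321, 454 and 108, 1094 and 334, and 1589 and 287 in those gates, 974 and 188, and 1177 and 50 for E. coli against PBS, and 595 and 34 for the interaction. With no filter edgeR called 175 in control gates, 472 in E. coli gates, 284 and 178 for E. coli against PBS, 21 and 13 for PBS against controls and 146 for the interaction. Fitting the compared groups alone gave 112 in E. coli gates, 320 and 9 for E. coli against PBS and 3 and 0 for PBS against controls, a fit of all 28 libraries 782 in untreated gates, and the block 187 in untreated gates, 198 in control gates, 105 for the interaction and 1 and 0 for PBS against controls. Groups of 2 to 5 libraries and counts under 40 in single ccl34b.1- libraries limit these results.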
